A study of Mus musculus with 3 samples.

Results

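Nrf2 binding was examined at the loci of Abcc1 and Abcc4, which encode efflux transporters, in mouse C2C12 myotubes. The members were every peak that overlapped chromosome 16 from 14300000 to 14530000 (the Abcc1 window, 230 kb) or chromosome 14 from 118830000 to 119160000 (the Abcc4 window, 330 kb), in mm9 coordinates. They came to 9 of the 6485 peaks in both lists together, 4 of 2892 in replicate 1 and 5 of 3593 in replicate 2. The loci were chosen by gene with the positions and scores of their peaks already known, so their values are a description and no test was made on them.

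C2C12 is a mouse myoblast line that fuses into muscle fibre-like myotubes in low serum. The wild-type cells had spent 72 h in differentiation medium before they received CDDO-Im, a triterpenoid that activates Nrf2, at 100 nmol/L for 3 h. Chromatin was fixed with formaldehyde and immunoprecipitated with an anti-Nrf2 antibody in 2 ChIP replicates, each with its own peak list, and the labels also name an input, whose reads were not used here. Every sample carried the same treatment, so the lists show where Nrf2 signal was found in treated cells and hold no untreated level, and expression of the transporters was not measured. The sources used here do not say whether the replicates came from separate cultures or whether the input was the control for the peaks. The read depth of each sample is unknown, and myotube markers could not be examined in peak lists.

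Nrf2 is a transcription factor that Keap1 marks for degradation in unstressed cells. Electrophiles such as CDDO-Im disable Keap1, and Nrf2 then binds antioxidant response elements with small Maf partners near genes of glutathione synthesis, detoxification and export. Abcc1 (also Mrp1) and Abcc4 (also Mrp4) belong to the C subfamily of ATP-binding cassette transporters, which use ATP to pump organic anions out of the cell. Abcc1 is known for exporting glutathione conjugates, oxidised glutathione and leukotriene C4, and Abcc4 for exporting cyclic nucleotides and prostaglandins. Both genes are widely described as responsive to Nrf2 in liver and other tissues.

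The core of the antioxidant response element is commonly written TGACNNNGC, and its first letters are shared with the AP-1 site TGANTCA, so that a match can overlap such a site. It was looked for on both strands in the RefSeq promoter table of the GRCm38.p6 build, which gives 250 bases before and 50 after a gene's start. The table held 2 promoter entries of Abcc4, both on the minus strand of chromosome 14, and each held 1 match. They are shown because they are the only promoter entries of a member in the table. They lie in another build than the peaks and could not be placed against them. The sequences run 5′ to 3′ along the gene's strand, with the match in capitals.

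Abcc4 first entry, chr14:118706226-118706254: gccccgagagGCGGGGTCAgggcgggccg

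Abcc4 second entry, chr14:118676936-118676964: aataatctcgTGACTCTGCcgtggtggat

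In the first entry the capitals are the core read on the opposite strand, and they end 16 bases before the annotated start. In the second they are the core on the gene's own strand, 14 bases before that entry's start. The same core was present in 4071 of the 32851 promoter entries of the table (12.4%). A match is a string of letters and not a binding site. Among the other transporter genes listed for this search, Abcc2, Abcc10 and Abcb1a had an entry with a match, and Abcc5, Abcb1b and Abcg2 had entries without one. Among the listed Nrf2 target genes, Gclm, a subunit of the enzyme that starts glutathione synthesis, Srxn1, which repairs oxidised peroxiredoxins, and Txnrd1, a thioredoxin reductase, had such an entry. The 12.4% counts entries and not genes, and Txnrd1 matched in 1 of its 3 entries and Abcc10 in 2 of 2. Nqo1, a quinone reductase, and Slc7a11, a cystine importer, had entries without one. Abcc1, Abcc3, Hmox1 and Gclc had no entry and were not searched.

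At Abcc1, both replicates listed a close pair of high-scoring peaks. The score is the authors' own value per peak, taken here as minus 10 log10 of the p-value that MACS assigns. It grows with depth, so scores were ranked within a list and not compared between lists. The peak of the pair farther from the gene spanned 14350701 to 14351420 in replicate 1, with a width of 720 bp and a score of 793. In replicate 2 it spanned 14350515 to 14351454, with a width of 940 bp and a score of 1896. It ranked 17 of 2892 peaks in replicate 1, where 99.4% of the list scored lower, and 5 of 3593 in replicate 2, where 99.9% scored lower. The peak was thus near the top of both lists.

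The nearer peak of the pair spanned 14352509 to 14353279 in replicate 1, with a width of 771 bp and a score of 276. In replicate 2 it spanned 14352457 to 14353206, with a width of 750 bp and a score of 1028. Its ranks were 142 and 38, with 95.1% and 98.9% of the lists scoring lower. In each list it was the lower-scoring peak of the pair, at 34.8% of its neighbour's score in replicate 1 and 54.2% in replicate 2. As the score is taken as a logarithm, these percentages are not ratios of binding. The median score over all peaks was 80.0 in replicate 1 (quartiles 60.4 and 116) and 88.7 in replicate 2 (63.6 and 156).

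**Figure D1:**
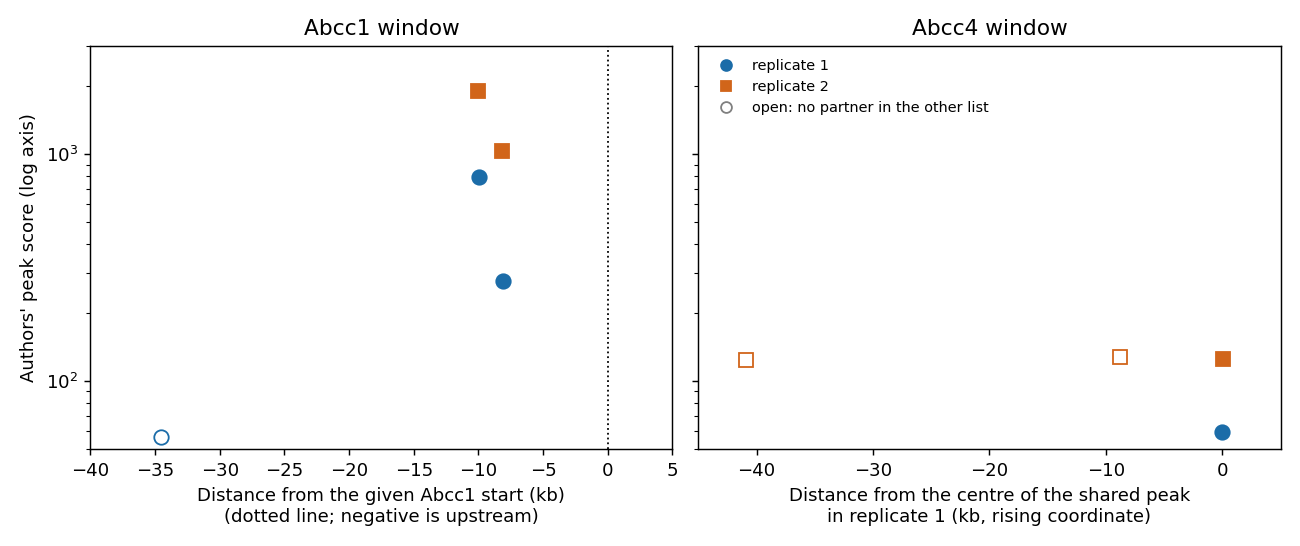
Peaks in the Abcc1 window (left) and the Abcc4 window (right) of replicate 1 (blue circles) and replicate 2 (orange squares), with position in kb on the x axis and the authors' peak score on a logarithmic y axis that begins at 50. Open symbols have no overlapping peak in the other list. At Abcc1 the replicates put a pair of peaks about 10 and 8 kb before the given start, and at Abcc4 they share 1 peak, scored 59.35 and 124.

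The pair lay upstream of Abcc1, taking the start at 14.361 Mb on the plus strand. This start came with the definition of the window, stated as mm9 and to the nearest kb. It was not checked against an mm9 annotation. The RefSeq start of the gene in GRCm38.p6 lies within 1 kb of the same number. The build of the given start is therefore uncertain, and the distances that follow hold only if it is an mm9 position. On that start, the centre of the farther peak was 10 kb upstream in both replicates, and that of the nearer peak 8 kb upstream. The edge of the nearer peak closest to the start was 7.72 kb away in replicate 1 and 7.79 kb in replicate 2. Neither list had a peak in the 177 kb from the end of the pair to the end of the window, a stretch that includes the given start. A stretch without a listed peak may still hold signal under the caller's threshold, as the lowest score in the lists was 50. In RefSeq the protein-coding neighbour of Abcc1 on this side is Cep20, a centrosomal protein gene, and a peak position alone does not say which gene it acts on.

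The spacing within the pair was nearly the same in both lists. The centres lay 1834 bp apart in replicate 1 and 1847 bp apart in replicate 2, and the gaps between the peaks were 1088 and 1002 bp. The 2 lists therefore resolved the signal into separate peaks rather than a merged one. The centre of the farther peak moved by 76 bp between replicates and that of the nearer peak by 62.5 bp. Over the 1613 shared regions with 1 peak in each list the median shift was 43 bp (quartiles 16.5 and 86), so that both shifts lay above the median and below the upper quartile. Over the 187 of these regions with a score of at least 200 in both replicates, as at the Abcc1 pair, the median was 40 bp and the upper quartile 72.75 bp, which the shift of the farther peak exceeded. The farther peak was 1.31 times as wide in replicate 2 as in replicate 1, beside a median of 1.30 over the 1613 regions. The nearer peak was 0.973 times as wide, below the lower quartile of 1.08.

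The remaining peak of the Abcc1 window was listed in replicate 1 only. It spanned 14326306 to 14326639, about 35 kb upstream of the given start, with a width of 334 bp and a score of 56.6. It ranked 2402 in its list, with 16.8% of peaks lower, and stood 42nd of 44 peaks on chromosome 16. The closest peak of replicate 2 was the farther peak of the pair, 24.5 kb away. Its score was below the median of 62.7 over the 979 peaks of replicate 1 that had no partner.

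At Abcc4 the peaks scored lower than the Abcc1 pair, and the lists overlapped at 1 place. In replicate 1 the window held 1 peak, from 119149720 to 119150239, with a width of 520 bp and a score of 59.35. Replicate 2 listed a peak from 119149639 to 119150457 that contained it, with a width of 819 bp and a score of 124. The ranks were 2245 of 2892, with 22.4% of the list lower, and 1177 of 3593, with 67.2% lower. The replicate 1 score was under the lower quartile of 68.8 over the 1913 peaks of its list with a partner, and the replicate 2 score was under the median of 129 over the 1797 partnered peaks of its list. The centres differed by 68.5 bp, and the peak was 1.58 times as wide in replicate 2, just above the upper quartile of 1.56.

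A pair of further peaks in the Abcc4 window was listed in replicate 2 only. The first spanned 119108717 to 119109462, with a width of 746 bp and a score of 123.7, and the second 119140923 to 119141509, with a width of 587 bp and a score of 127.2. All 3 peaks of replicate 2 therefore scored between 123.7 and 127.2, and they ranked between 1135 and 1186 in the list. The scores of the unpartnered peaks were above the upper quartile of 98.6 over the 1796 peaks of replicate 2 without a partner. In replicate 1 the closest listed peak was 40.9 kb from the centre of the first and 8.76 kb from that of the second.

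The peaks of Abcc4 were gathered at the upper end of its window. In replicate 2 they fell within the last 51.3 kb, and the 278.7 kb before them held no peak in either list. The centre of the shared peak was 10.0 kb inside the window's end. RefSeq places Abcc4 on the minus strand, so its start faces this side, where the next protein-coding gene is Cldn10, which encodes a tight junction claudin. No start of Abcc4 in the mm9 build was at hand, so no distance to it is given, and it was not tested whether these peaks lie upstream of Abcc4, inside it or nearer to another gene.

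**Figure D2:**
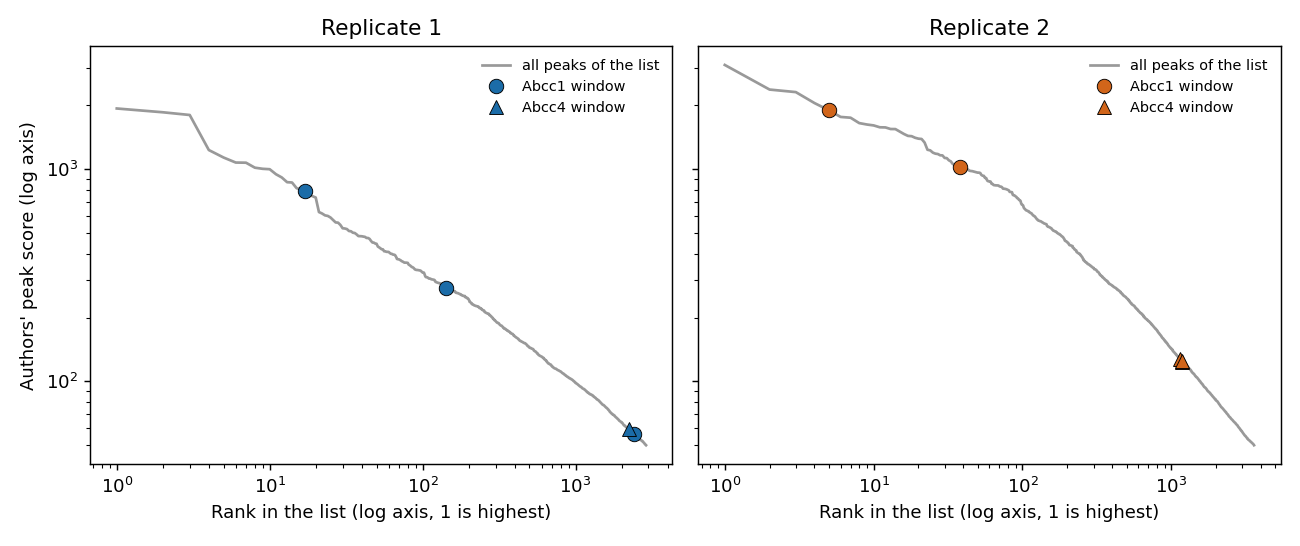
Authors' peak score against rank for all peaks of replicate 1 (left, 2892 peaks) and replicate 2 (right, 3593 peaks), both axes logarithmic, as grey lines, with the peaks of the Abcc1 window as circles and those of the Abcc4 window as triangles. The pair at Abcc1 ranks 17 and 142 in replicate 1 and 5 and 38 in replicate 2, while the Abcc4 peaks rank 2245 in replicate 1 and 1135 to 1186 in replicate 2.

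Of the 4 member peaks of replicate 1, 3 shared at least 1 bp with replicate 2, beside 66.1% of all peaks of that list. Of the 5 member peaks of replicate 2, 3 shared at least 1 bp with replicate 1, beside 50% of all its peaks. The share on chromosome 16 was 86.4% of peaks in replicate 1 and 41.9% in replicate 2. For chromosome 14 it was 65.5% and 30.0%. No difference from these backgrounds is read from so few peaks. Scores of 200 or more belonged to 2 of the 4 and 2 of the 5 member peaks, all at Abcc1, beside 9.85% of all peaks in replicate 1 and 18.4% in replicate 2. These scores were known when the loci were chosen, and nothing is read from that difference.

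Chains of overlapping peaks made 1750 regions shared by both lists, and 3 of them were members, each with 1 peak per replicate. The regions were ordered by their worse rank, with ties broken by the better rank. The farther Abcc1 region stood 9th, the nearer Abcc1 region 80th and the Abcc4 region 1364th of 1750. A score of at least 200 in both replicates was found for both Abcc1 regions, for 13.1% of all shared regions and not for the Abcc4 region.

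The regions next to the members in this order had a similar worse rank, while their better rank, and the replicate it came from, could differ. Directly above the farther Abcc1 region stood a region on chromosome 3 from 95848213 to 95849199 (scores 1801 and 1436), and directly below it one on chromosome 16 from 3241135 to 3245173 (1017 and 1431). The latter was 4039 bp wide, against 940 bp at Abcc1. The neighbours of the nearer Abcc1 region were on chromosome 1 from 58086085 to 58086988 (279.7 and 801) and on chromosome 14 from 31377316 to 31378286 (275.8 and 840). The neighbours of the Abcc4 region scored 59.4 and 82.8, on an unplaced sequence, and 93.4 and 63.4, on chromosome 1 from 78993336 to 78993816. These regions are given by position only, for want of mm9 gene models.

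**Figure D3:**
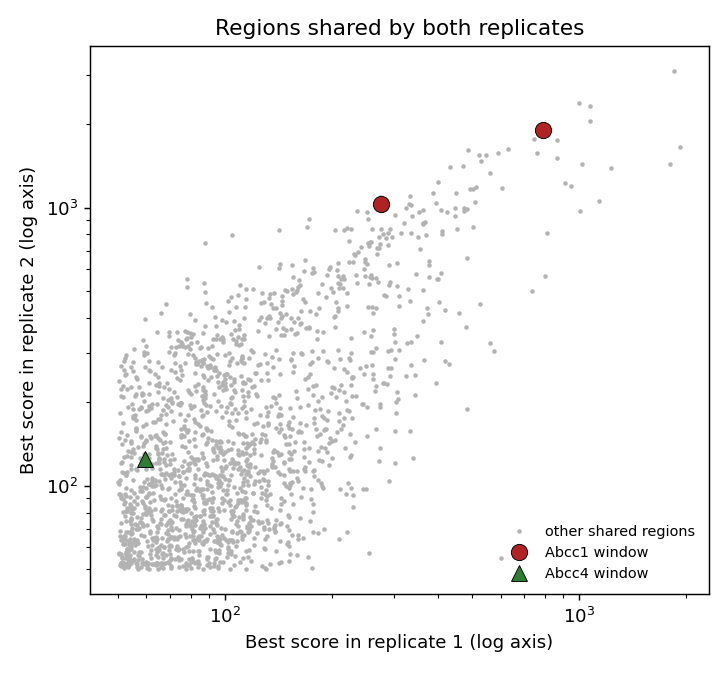
Best score in replicate 1 (x axis) against best score in replicate 2 (y axis), both logarithmic, for the 1750 regions shared by the replicates (grey points), with the 2 Abcc1 regions as red circles and the Abcc4 region as a green triangle. The Abcc1 regions lie at 793 and 1896 and at 276 and 1028, in the upper right of the cloud, and the Abcc4 region lies at 59.35 and 124.

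On its own chromosome the farther Abcc1 peak was the highest of 86 peaks in replicate 2 and the second of 44 in replicate 1. The nearer peak stood 4th and 7th. The Abcc4 peak that both replicates share stood 39th of 58 peaks on chromosome 14 in replicate 1 and 32nd of 120 in replicate 2. Chromosome 16 had 0.451 peaks per Mb in replicate 1 and 0.882 in replicate 2, and chromosome 14 had 0.470 and 0.972.

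The shared Abcc4 region had no other shared region within 100 kb, and the closest was 1683 kb away. Each Abcc1 region had 1 other shared region within 100 kb, its partner in the pair. Over all peaks the median number of other peaks of the same list within 100 kb was 3 in replicate 1 and 1 in replicate 2. The member peaks had from 0 to 2 in replicate 1, below that median, and 1 or 2 in replicate 2, at or above it. Chromosomes 2 to 19, which include both loci, supplied 1312 of the 2892 peaks listed for replicate 1 and 2238 of the 3593 for replicate 2. The medians cover all chromosomes and were not made for these alone, so whether the members differ from such peaks was not tested. Just outside the Abcc1 window, the first peaks on the lower side lay 885 kb away in both lists, with scores of 64.8 in replicate 1 and 278 in replicate 2. On the upper side they lay 3458 kb away in replicate 1 (score 70.3) and 153 kb away in replicate 2 (score 52.5). Just outside the Abcc4 window the closest peaks were on the upper side, 1673 kb away in replicate 1 (score 119) and 1367 kb away in replicate 2 (score 80.7).

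Close spacing was common among shared regions, and 29.9% of the 1750 had another shared region within 5 kb. Among the 229 regions with a score of at least 200 in both replicates, 34 (14.8%) had another such region within 5 kb, both Abcc1 regions included. How many of the 34 lay in crowded stretches was not counted. A narrower class, defined after the values were seen, held pairs of these 229 regions. In each pair the region of lower coordinate had the other as its only shared neighbour within 100 kb. The scores and positions at Abcc1 were known when the loci were chosen, and nothing is read from which pairs are in the class. With a limit of 5 kb between centres the class held 1 pair, that at Abcc1, at 1884 bp between the centres of the shared regions. With a limit of 10 kb a pair on chromosome 8 from 77607411 to 77614066 joined it, at 5756 bp and with scores of 869 and 1073 in replicate 1 and 1749 and 2051 in replicate 2.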

How the data were processed

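Nrf2 ChIP-seq peak lists of 2 replicates of CDDO-Im-treated C2C12 myotubes were used, as deposited. The submitters' processing notes name bcl2fastq 2.15.0, Bowtie2, MACS 1.4 and the mm9 build, without their roles or settings. The score of each peak is the authors' deposited value, not normalised between samples. Starts were counted from 1. Peaks were listed per sample. Read depth is unknown, so no interval on a score was made.

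Peaks were ranked by score within a list and called shared at an overlap of at least 1 bp, with chains merged into regions. Distances are between centres unless edges are named. Overlap and rank functions were tested on made-up intervals with known answers. The members, the windows and the lists of genes were chosen with earlier results of these data known. All peaks in the windows are given, with the shared regions next to each member in rank order. Peak counts at other transporter and Nrf2 target genes needed an mm9 annotation and were not made. Gene neighbours come from RefSeq (GRCm38.p6), and no coordinates were converted. Python 3.11.15, SciPy 1.17.1 and matplotlib 3.10.9 were used.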

Additional observations from a re-analysis of the deposited data

How the results depend on the processing

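The Abcc1 counts of peaks and shared regions kept within the limit for counts (1.5 times) under every alternative run: a score of at least 100, windows widened by 50 kb or narrowed by 20 kb on each side and, for shared regions, overlap of 50% of both peaks or centres within 200 bp. The Abcc1 peaks of replicate 1 fell from 3 to 2 at a score of at least 100, which is at that limit, and the other Abcc1 counts did not change. At Abcc4 a score of at least 100 left 0 peaks in replicate 1 and 0 shared regions, and the narrowed window left 0 peaks in replicate 1, 1 in replicate 2 and 0 shared regions, since the shared peak lies near the window's end. The percentage of a list that scored below the best Abcc1 peak was 98.9% in replicate 1 on chromosomes 2 to 19. By width it was 82.4% in replicate 1 and 85.9% in replicate 2. For Abcc4 in replicate 1 it was 24.1% among isolated peaks (fewer than 2 others within 100 kb) and 62.3% by width. For the best Abcc4 peak of replicate 2, from 119140923, it was 64.3% on chromosomes 2 to 19 and 44.3% by width. The best Abcc1 peak of replicate 1 and the best Abcc4 peak of replicate 2 are not isolated by this rule. Set against the isolated peaks of their lists, they had 99.4% and 67.6% below them, values not counted among the alternatives. The share of all peaks that overlap the other list was 52.2% in replicate 1 and 42.0% in replicate 2 with overlap of 50% of both, 52.5% and 42.2% with centres within 200 bp, and 72.3% and 43.0% with scores of at least 100. Beyond the fewer peaks or the narrower window that an alternative itself makes, the cause was not tested. For a percentage the limit was the 95% binomial interval (Wilson) of the main value. That interval counts every peak as an independent draw, so a small change can fall outside it, and it does not measure variation between replicates. Of 38 alternative values, 20 kept within the limits and 18 moved. With either replicate left out there is nothing to overlap, and no value was made. No paired analysis was possible because all ChIP samples form 1 group. The unknown depth limits any reading of peaks listed in 1 replicate only.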
